A study of Mus musculus with 25 samples.

Results

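The genes for 10 transcription factors of the RUNX and ETS families (Runx1, Runx2, Runx3, Cbfb, Ets1, Ets2, Fli1, Elf1, Etv6 and Gabpa) were described here at 66 of the 13527 regions of open chromatin (peaks) in the deposited table of ATAC-seq counts. A peak was assigned to a gene if that gene had the nearest protein-coding gene start to the peak midpoint (53 peaks) or if the midpoint lay inside the gene without that (13 peaks), by the GENCODE vM39 annotation of GRCm39. Ets1 had 22 peaks, Ets2 and Runx2 had 7 each, Runx1, Runx3 and Fli1 had 6 each, Etv6 and Elf1 had 5 each, and Cbfb and Gabpa had 1 each. Peaks carry the gene symbol and a number that runs along the direction of transcription, so that Runx2_1 lies nearest the 5′ end of Runx2.

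ATAC-seq marks accessible DNA by where the Tn5 transposase can insert. It was applied to CD8+ T cells from spleen and lymph nodes of female C57BL/6 mice, sorted by tetramers of an ovalbumin peptide on H-2Kb, so that the cells (T FGS) recognise an antigen that male 2W-OVA.BALB/c mice pass to the fetus. Each of the 25 libraries belonged to 1 of 7 groups. Naive mice (3 libraries) had no treatment, N+P mice had a semi-allogeneic pregnancy alone, Sensitized mice (4 libraries) had rejected an allogeneic 2W-OVA.BALB/c skin graft, and S+P mice had the graft followed by the pregnancy. Post-partum cells were sorted further into N+P C1 (PD1-) and N+P C5 (PD1+CD73+), with 3 libraries each, and S+P C4 (PD1-), S+P C5 (PD1+CD73+) and S+P C7 (PD1+CD73-), with 4 libraries each. The S+P and N+P subsets therefore differ from Naive and Sensitized cells in the sort as well as in the pregnancy, and these cannot be told apart. PD1 and CD73 are surface proteins of activated, exhausted or hypofunctional T cells. Accessibility in a sorted population also cannot tell more open alleles per cell from more cells that hold the open allele.

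RUNX proteins bind DNA through a Runt domain as a complex with CBFβ, the product of Cbfb, which binds no DNA itself and strengthens the binding of its partner. In CD8+ T cells Runx3 keeps Cd4 silent and is needed for cytotoxic effector and memory differentiation, Runx1 acts in thymic development and in keeping naive cells quiescent, and Runx2 has been tied to long-term memory cells. ETS proteins share a winged helix that binds a GGAA core and often sit beside RUNX on T cell enhancers. Ets1 keeps naive T cells alive and competent, and Fli1 restrains effector differentiation. Ets2 and Gabpa (the DNA-binding subunit of GABP) are broadly expressed activators, and Etv6 is a repressor.

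Total counts over all peaks ran from 2430890 to 25419715 per library, with a median of 8197552, so the S+P C4 replicate with the lowest total gave the least precise values. The RUNX and ETS gene peaks took between 0.369% and 0.49% of the counts. Promoter peaks were present for 6 of the 7 CD8 T cell markers examined (not Cd2) and for 0 of the 5 B cell, 5 myeloid, 2 natural killer cell and 3 erythroid markers. Over all peaks, Sensitized replicates 3 and 4 lay nearest to the N+P C5 group (correlation of log2 values 0.973 and 0.955) rather than to the other Sensitized libraries, Sensitized replicate 1 lay nearest to S+P C4, Naive replicate 3 to N+P C1 and S+P C4 replicate 1 to N+P C5. Values without these libraries are given for only part of the results that rest on them.

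The sequences shown are those of 6 peaks away from promoters on which the results turn: the peak with the widest range (Runx2_2), the peak called beside it in most comparisons (Ets1_5), the peak that closed in most comparisons (Ets1_10) and the leading peaks of Etv6, Runx1 and Runx3. Each is the 300 bases around the peak midpoint on the plus strand of GRCm39, which is not a footprint or a summit. Capitals mark the letters TGTGGT, a common core of RUNX sites, and CGGAAG, a common core of ETS sites, on either strand (ACCACA and CTTCCG on the other).
Runx2_2, chr17:45077365-45077664: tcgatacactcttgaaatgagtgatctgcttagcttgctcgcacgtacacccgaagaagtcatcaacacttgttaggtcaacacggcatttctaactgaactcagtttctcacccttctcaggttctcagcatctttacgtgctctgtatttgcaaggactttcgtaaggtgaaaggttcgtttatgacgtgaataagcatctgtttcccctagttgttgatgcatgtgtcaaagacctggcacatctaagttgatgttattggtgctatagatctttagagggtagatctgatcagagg
Ets1_5, chr9:32572937-32573236: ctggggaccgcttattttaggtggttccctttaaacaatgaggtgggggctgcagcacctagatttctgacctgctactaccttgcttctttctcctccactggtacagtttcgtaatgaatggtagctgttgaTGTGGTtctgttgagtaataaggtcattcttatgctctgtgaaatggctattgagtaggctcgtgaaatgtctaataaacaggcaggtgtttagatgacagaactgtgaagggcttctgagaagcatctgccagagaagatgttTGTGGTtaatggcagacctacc
Ets1_10, chr9:32634269-32634568: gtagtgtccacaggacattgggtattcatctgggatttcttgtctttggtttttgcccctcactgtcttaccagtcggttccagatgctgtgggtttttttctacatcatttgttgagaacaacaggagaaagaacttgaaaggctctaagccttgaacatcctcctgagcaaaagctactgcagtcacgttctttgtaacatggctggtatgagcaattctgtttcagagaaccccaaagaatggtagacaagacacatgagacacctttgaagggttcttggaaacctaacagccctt
Etv6_3, chr6:134043952-134044251: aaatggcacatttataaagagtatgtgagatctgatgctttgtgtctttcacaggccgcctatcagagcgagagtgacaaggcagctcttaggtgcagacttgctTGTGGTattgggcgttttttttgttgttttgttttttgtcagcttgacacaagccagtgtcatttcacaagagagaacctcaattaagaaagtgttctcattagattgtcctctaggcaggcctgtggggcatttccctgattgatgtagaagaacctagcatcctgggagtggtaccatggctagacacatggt
Runx1_1, chr16:92661195-92661494: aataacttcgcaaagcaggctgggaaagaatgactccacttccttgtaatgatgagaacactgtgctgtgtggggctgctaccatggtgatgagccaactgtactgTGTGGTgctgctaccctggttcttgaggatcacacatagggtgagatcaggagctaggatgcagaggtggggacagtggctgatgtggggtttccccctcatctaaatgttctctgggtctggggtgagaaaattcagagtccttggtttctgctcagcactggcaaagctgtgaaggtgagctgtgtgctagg
Runx3_2, chr4:134804402-134804701: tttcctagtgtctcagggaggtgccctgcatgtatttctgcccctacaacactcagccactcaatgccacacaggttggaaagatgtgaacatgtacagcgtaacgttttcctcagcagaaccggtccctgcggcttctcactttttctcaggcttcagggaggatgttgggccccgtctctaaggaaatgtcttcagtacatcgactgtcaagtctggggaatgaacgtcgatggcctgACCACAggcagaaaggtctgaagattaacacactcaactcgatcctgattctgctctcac

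Ets1_5 held 2 RUNX cores, and Etv6_3, Runx1_1 and Runx3_2 held 1 each. Neither TGTGGT nor CGGAAG was found on either strand in the windows of Runx2_2 and Ets1_10. Core here means these letters in full, and the shorter GGAA was not counted. Among the 56 peaks outside promoters, 25 (44.64%) held a RUNX core, against 40.62% of all 5857 such peaks, and 6 (10.71%) held an ETS core, against 11.29%. Of the 25 peaks that were called in at least 1 comparison, 11 held a RUNX core (44.0%), and of the 31 non-promoter peaks never called 14 did (45.16%). None of the 66 windows held both cores, which 3.86% of all 13527 windows did. A RUNX and an ETS core cannot share letters, and a match is a description of the sequence, not a site of binding.

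The promoter peaks in this set held counts in every group and mostly moved little. A promoter peak is one whose midpoint lay within 1000 bases of a protein-coding transcript start. Only 10 of the 66 peaks (15.15%) were promoter peaks, against 56.7% of all peaks, while 34 lay in introns and 22 between genes. A peak was called when DESeq2 gave an adjusted p under 0.1 and a log2 fold change beyond 0.9 in size, and 0 of the 10 promoter peaks were called in any of 11 comparisons, against 4.95% of all promoter peaks. The highest group mean was between 1.13 and 1.38 times the lowest for 9 of them, Runx1_2 being the exception. Fli1 had no peak midpoint within 1000 bases of a start. The midpoint of its nearest peak, Fli1_1, lay 2585 bases from the most upstream start (chromosome 9, 32454157). The canonical Fli1 start, at 32452891, lay nearer to Fli1_1, which spanned 32450559 to 32452586. The only promoter peak inside Runx2 sat at a start of Supt3, a gene on the opposite strand. The RefSeq promoter of Runx2 overlapped none of the 66 peaks, nor did the downstream RefSeq promoters of Runx1 and Runx3.

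Runx1_2, at the distal (P1) promoter of Runx1, was the promoter peak with the widest range. Its normalized count (the count divided by the DESeq2 size factor of the library) was 610.3, 710.0 and 652 in Naive, 701, 694 and 689.5 in N+P C1, and 664, 765 and 689 in N+P C5. Sensitized libraries held 964, 912, 781 and 702, those of S+P C4 held 936, 1086, 1410.3 and 1288, S+P C5 held 892, 1099, 979 and 1129.9, while S+P C7 reached 1259, 1272, 1335 and 1437. Every S+P library was therefore above every Naive and N+P library, and S+P C7 was above Sensitized without overlap. Its log2 fold change was 0.66 ± 0.11 (SE) for S+P C7 against Sensitized (adjusted p 1.721e-07), 0.50 ± 0.11 for S+P C4 against Sensitized (adjusted p 0.002654) and 0.54 ± 0.13 for S+P C5 against N+P C5 (adjusted p 0.000101, all DESeq2), so all 3 stayed under the fold threshold. The RefSeq promoter under this peak, read on the minus strand and found by exact match at chr16:92622913-92623212 of GRCm39, is shown because it carries 2 RUNX cores side by side at its 3′ end.
Runx1 promoter: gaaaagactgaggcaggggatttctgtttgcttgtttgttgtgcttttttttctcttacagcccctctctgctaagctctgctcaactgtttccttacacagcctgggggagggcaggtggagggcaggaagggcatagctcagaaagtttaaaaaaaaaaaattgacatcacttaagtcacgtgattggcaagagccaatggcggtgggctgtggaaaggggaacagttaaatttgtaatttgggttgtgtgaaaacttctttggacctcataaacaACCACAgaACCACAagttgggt

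RefSeq promoters were found for 8 of the 10 genes (11 promoters, not Ets1 or Fli1). Of these 11, 3 held a RUNX core (27.27%, against 16.76% of all 32851 promoters) and 1 held an ETS core (9.09%, against 16.85%). The 3 were those of Runx1 (P1), Runx3 (distal) and Runx2, the RUNX genes themselves. The Runx3 promoter peak, Runx3_5, had a mean of 722 ± 98.9 (SD, n = 3) in Naive and 832 ± 48.4 (n = 4) in S+P C5, and the Cbfb promoter peak had 806 ± 47.0 in Naive and 693 ± 34.7 in S+P C5. The Gabpa promoter peak, which is shared with Atp5pf, had the highest level of the 10, with 2038 ± 208 in Naive, 2455 ± 115 in N+P C1 and 1781 ± 160.3 in S+P C5. Its fall in S+P C5 against N+P C5 was small but did not overlap (log2 fold change −0.40 ± 0.10, DESeq2 adjusted p 0.0005944). Etv6_1, the Etv6 promoter peak, had 1293 ± 150.0 in Naive, 1617 ± 107 in N+P C1 and 1309 ± 115 in S+P C5. For Elf1, whose first promoter peak is shared with Wbp4, and for Ets1 and Ets2 the group means stayed between 637 and 740.2, 579.9 and 654, and 665 and 797.

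All changes past both thresholds lay outside promoters. Of the 66 peaks, 25 (37.88%) were called in at least 1 comparison, against 22.01% of all peaks. Outside promoters the same 25 were 44.64% of 56 peaks, against 44.34% of all 5857 non-promoter peaks, so the share called was that of the non-promoter background. The called peaks belonged to Ets1 (7), Runx3 (5), Runx2 (4), Etv6 (3), Ets2 (3), Fli1 (2) and Runx1 (1), and none to Elf1, Cbfb or Gabpa. Runx2_2 and Ets1_5 were called in 6 comparisons each, Ets2_5, Etv6_4 and Etv6_5 in 5, and Ets1_10 and Etv6_3 in 4.

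**Figure D1:**
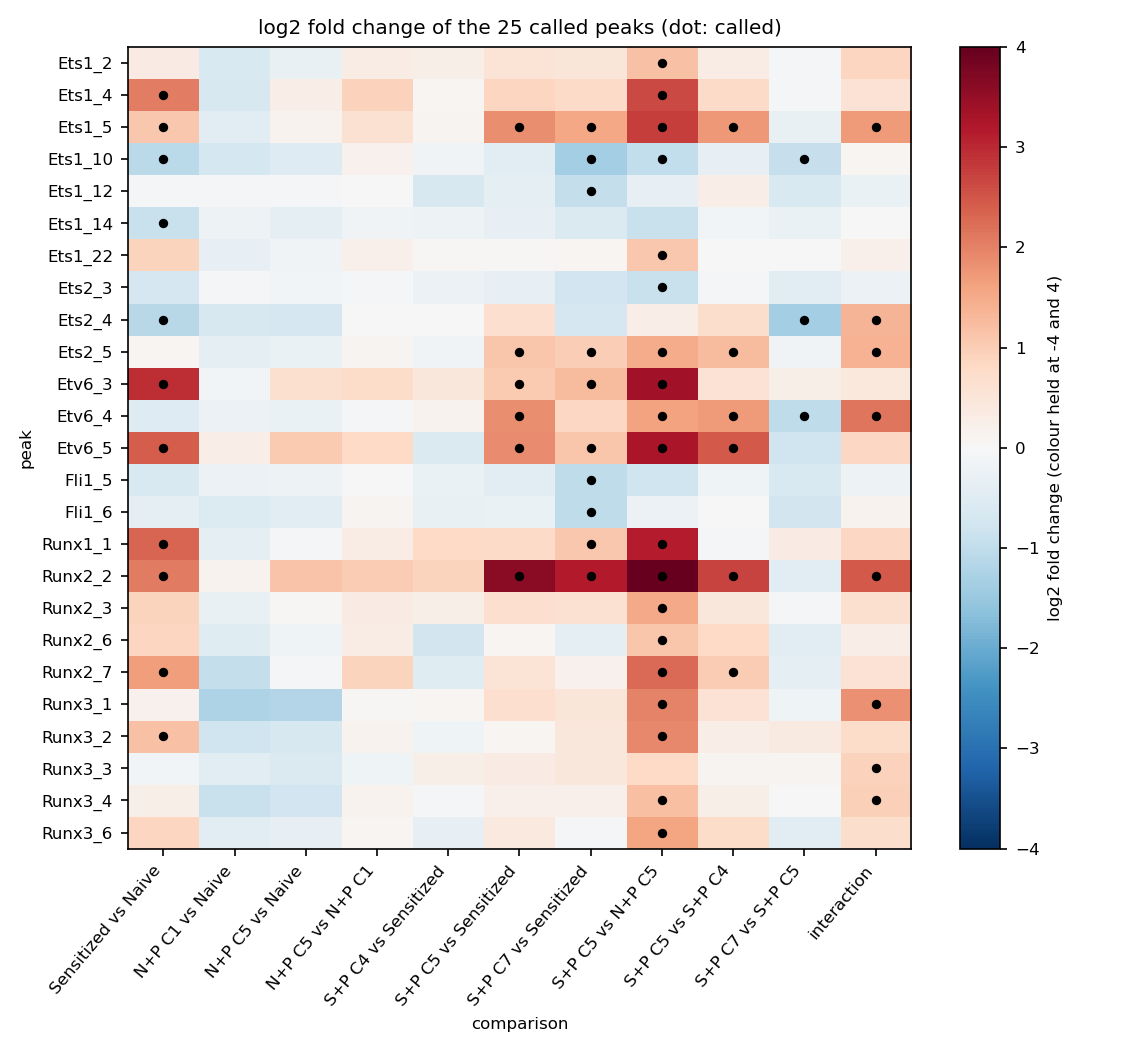
Log2 fold change (colour, DESeq2) of the 25 peaks called in at least 1 comparison (rows) in each of 11 comparisons (columns), with a dot where the peak was called. Both N+P columns against Naive and those of N+P C5 against N+P C1, and S+P C4 against Sensitized hold no dot, and that of S+P C5 against N+P C5 holds 19.

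The graft alone was followed by called changes at 11 of the 66 peaks, 8 opening and 3 closing, against 8.62% of all peaks (7.22% opening, 1.40% closing) and 18.4% of non-promoter peaks (16.67% of the 66, 19.64% of the 56). The opening peaks were Etv6_3, Etv6_5, Runx1_1, Runx2_2, Ets1_4, Runx2_7, Runx3_2 and Ets1_5, and the closing ones Ets1_10, Ets2_4 and Ets1_14. The median log2 fold change over the 66 peaks was −0.01, as over all peaks (−0.01). Pregnancy in mice without a graft gave no called peak in this set in N+P C1 or N+P C5 against Naive, nor between the 2 subsets (0.00739%, 0.00739% and 0% of all peaks, 0.0171%, 0.0171% and 0% of non-promoter peaks). At an unadjusted p under 0.05 there were 23, 15 and 2 peaks by DESeq2 and 22, 14 and 2 by edgeR. No share of all peaks at that p is given, here or for S+P C4 below, so these counts have no background. In N+P C1 54 of the 66 peaks were lower than in Naive and 12 higher, and in N+P C5 47 were lower and 19 higher. Their median log2 fold changes were −0.22 and −0.16, against −0.02 and 2e-04 over all peaks, 56.7% of which are promoter peaks. DESeq2 gave an adjusted p for only 20 and 13 of the 66 peaks against Naive, since its independent filter on the mean count set aside 8654 and 9703 of all peaks, and with that filter off there were also 0 called. Without Naive replicate 3 there were 2 closing in N+P C1 and 1 closing in N+P C5, with total counts 2 in N+P C1, and with the compared groups fitted alone 2 and 1.

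Pregnancy after the graft gave called changes in both PD1+ subsets. Against Sensitized, S+P C4 had 0 called peaks (0.858% of all peaks and 1.93% outside promoters, with 8 at an unadjusted p under 0.05 by DESeq2 and 7 by edgeR), S+P C5 had 6, all opening (6.74% of all peaks, 3.08% opening and 3.67% closing), and S+P C7 had 10, 6 opening and 4 closing (11.9%, of which 3.84% and 8.03%). With loess offsets, which remove trends with mean count, the split in S+P C7 was 4 opening and 6 closing. S+P C5 had 19 called against N+P C5, 17 opening and 2 closing (17.2%, of which 10.3% and 6.97%; with loess offsets 12 opening and 3 closing), and 6 called against S+P C4, all opening (5.12%, of which 3.12% and 2.00%). S+P C7 against S+P C5 had 3, all closing (2.38%, of which 0.266% opened and 2.11% closed). The contrast of the pregnancy effect in PD1+CD73+ cells after a graft with that effect without one, which is the interaction (S+P C5 minus Sensitized) minus (N+P C5 minus Naive), had 8 called, all positive (5.97%, of which 3.04% positive and 2.93% negative). Outside promoters the backgrounds were 14.7%, 24.6%, 35.4%, 11.2%, 5.14% and 11.2% in the order S+P C5 and S+P C7 against Sensitized, S+P C5 against N+P C5 and against S+P C4, S+P C7 against S+P C5, and the interaction. With loess offsets the called peaks over the whole table were 341 opening and 1213 closing in S+P C7 against Sensitized, 1164 and 1091 in S+P C5 against N+P C5, then 312 and 390 for S+P C5 against S+P C4, and 257 positive and 622 negative for the interaction, with 6 of the 66 opening in the third and 7 positive in the fourth. In S+P C5 against Sensitized they were 266 and 620, with 6 of the 66 opening. These comparisons share their Sensitized, N+P C5 and S+P C5 libraries.

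**Figure D2:**
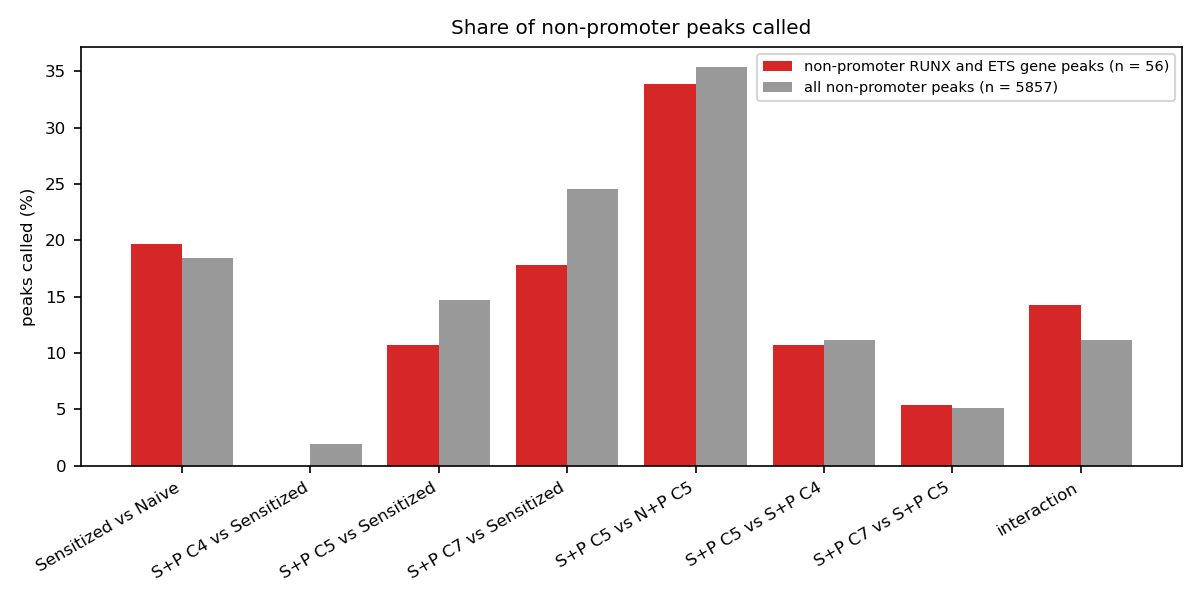
Share of non-promoter peaks called (%, vertical axis) in 8 comparisons, for the 56 RUNX and ETS gene peaks and for all 5857 non-promoter peaks. The largest pair is S+P C5 against N+P C5, with 33.93% and 35.4%.

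Runx2 held the peak with the widest range of all. Runx2_2 lay in an intron of Runx2 (chromosome 17, 45077162 to 45077866), 48170 bases into the gene, and also within Supt3. Its normalized count was 11.02, 3.93 and 11.99 in Naive, 8.85, 10.1 and 11.3 in N+P C1, and 15.1, 12.3 and 32.5 in N+P C5. Sensitized libraries held 45.0, 43.1, 24.1 and 40.1, those of S+P C4 held 74.9, 80.5, 84.9 and 46.3, S+P C5 held 486, 696, 397 and 272, while S+P C7 reached 474, 453, 316 and 124. The order was Naive and N+P C1, then N+P C5 and Sensitized, then S+P C4, then both PD1+ S+P subsets, with no overlap between these steps and overlap within them. The means of 8.98 in Naive and 463 in S+P C5 differed 51.52-fold, although the Naive libraries held only 8, 4 and 19 raw counts here, against 1552, 455, 472 and 364 in S+P C5. Runx2_2 had a log2 fold change of 2.07 ± 0.49 in Sensitized against Naive (adjusted p 0.0003929), 3.60 ± 0.38 in S+P C5 against Sensitized (adjusted p 4.017e-18), then 2.70 ± 0.39 in S+P C5 against S+P C4 (adjusted p 8.619e-10) and 4.53 ± 0.45 in S+P C5 against N+P C5 (adjusted p 3.003e-21). The interaction was 2.46 ± 0.67 (adjusted p 0.00691, all DESeq2), and it was called under each of its 22 alternatives, between 1.92 and 3.00.

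The other Runx2 peaks opened less. Runx2_7, far into the gene (chromosome 17, 44867844 to 44868569), had 101, 87.5 and 103 in Naive, 48.7, 50.5 and 52.8 in N+P C1 and 82.5, 109.7 and 91.4 in N+P C5. Sensitized libraries held 418, 466, 154 and 202, those of S+P C4 held 286, 204, 224 and 186, S+P C5 held 434, 553, 429.6 and 384, while S+P C7 reached 344, 392, 333 and 340.1. All graft libraries were above all Naive and N+P libraries. Runx2_7 opened in Sensitized against Naive (log2 fold change 1.67 ± 0.28, adjusted p 1.083e-07), in S+P C5 against N+P C5 (2.25 ± 0.28, adjusted p 1.311e-13) and also against S+P C4 (1.02 ± 0.26, adjusted p 0.001929, all DESeq2). Runx2_3 and Runx2_6 opened in S+P C5 against N+P C5 (log2 fold changes 1.52 ± 0.23 and 1.12 ± 0.28), the second not under loess offsets. Of the 7 Runx2 peaks, 6 (all but Runx2_1) had the Supt3 start as their nearest and belong here only as lying inside Runx2.

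Runx1 had a single called peak, Runx1_1, which lay 38307 bases upstream of the gene between genes (chromosome 16, 92661130 to 92661558). Its normalized count was 28.9, 39.3 and 30.3 in Naive, 23.2, 23.6 and 30.1 in N+P C1, and 33.2, 27.4 and 32.5 in N+P C5. Sensitized libraries held 311, 208, 66.5 and 71.0, those of S+P C4 held 119, 253, 407 and 345, S+P C5 held 232, 321, 273 and 278, while S+P C7 reached 236, 299.6, 418 and 442. Every graft library was above every library without a graft, and Sensitized replicates 1 and 2 stood well above replicates 3 and 4. The log2 fold change was 2.32 ± 0.44 in Sensitized against Naive (adjusted p 3.31e-06) and 3.15 ± 0.45 in S+P C5 against N+P C5 (adjusted p 4.162e-11, both DESeq2). The call in S+P C7 against Sensitized (1.09 ± 0.39) was lost without Sensitized replicate 3, without replicate 4, without both and with loess offsets, down to 0.43.

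Runx3, the RUNX factor of cytotoxic T cells, had 5 of its 6 peaks called in S+P C5 against N+P C5 or in the interaction. There were 4 called in the first, against 17.2% of all peaks and 35.4% outside promoters. The interaction had 3, against 5.97% and 11.2%. Runx3_2, 43401 bases upstream (chromosome 4, 134804125 to 134804977), had 203, 171 and 106 in Naive, 102, 95.3 and 77.2 in N+P C1 and 112, 109.7 and 84.2 in N+P C5. Sensitized libraries held 650.1, 453, 150.2 and 189.8, those of S+P C4 held 245, 317, 405 and 303, S+P C5 held 342, 540.3, 372 and 277, while S+P C7 reached 454, 645, 459 and 408. All S+P libraries were above all Naive and N+P ones, while Sensitized replicates 3 and 4 overlapped Naive. Runx3_2 opened in Sensitized against Naive (log2 fold change 1.18 ± 0.36, adjusted p 0.01022), a call lost when Sensitized replicate 1 was left out (0.73) or the 2 groups were fitted alone, and in S+P C5 against N+P C5 (1.91 ± 0.37, adjusted p 1.911e-06, both DESeq2), a call kept under all alternatives.

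Runx3_1, Runx3_4 and Runx3_6 opened in S+P C5 against N+P C5 as well, with log2 fold changes of 1.99 ± 0.40, 1.19 ± 0.27 and 1.57 ± 0.32. Under loess offsets all 3 were lost, at 0.24, 0.58 and 0.50, and only Runx3_2 was called. All 6 Runx3 peaks were lower in N+P C1 and in N+P C5 than in Naive, with median log2 fold changes of −0.60 and −0.61. They kept that direction under total counts and loess offsets. Most of the whole set was lower there too, at 54 and 47 of the 66 peaks. No such count is given for other non-promoter peaks. The independent filter left Runx3_1, Runx3_2, Runx3_4 and Runx3_6 without an adjusted p in both comparisons, so they could not be called there. Runx3_1 had −1.22 ± 0.43 (N+P C1) and −1.16 ± 0.43 (N+P C5) against Naive. Runx3_4 had 161, 183 and 150.2 in Naive, 92.9, 71.8 and 102 in N+P C1, and 98.6, 90.5 and 101 in N+P C5, so that the pregnancy groups did not overlap Naive. Sensitized libraries held 322, 199, 122 and 128 and those of S+P C5 192, 260.2, 238 and 198. For the interaction Runx3_1 had 1.82 ± 0.55 (adjusted p 0.0153), Runx3_4 0.97 ± 0.37 (adjusted p 0.04929) and Runx3_3 0.91 ± 0.27 (adjusted p 0.01406, all DESeq2). None of these 3 interaction calls held without Sensitized replicates 3 and 4 together, where the values were 1.29, 0.52 and 0.60 in that order.

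**Figure D3:**
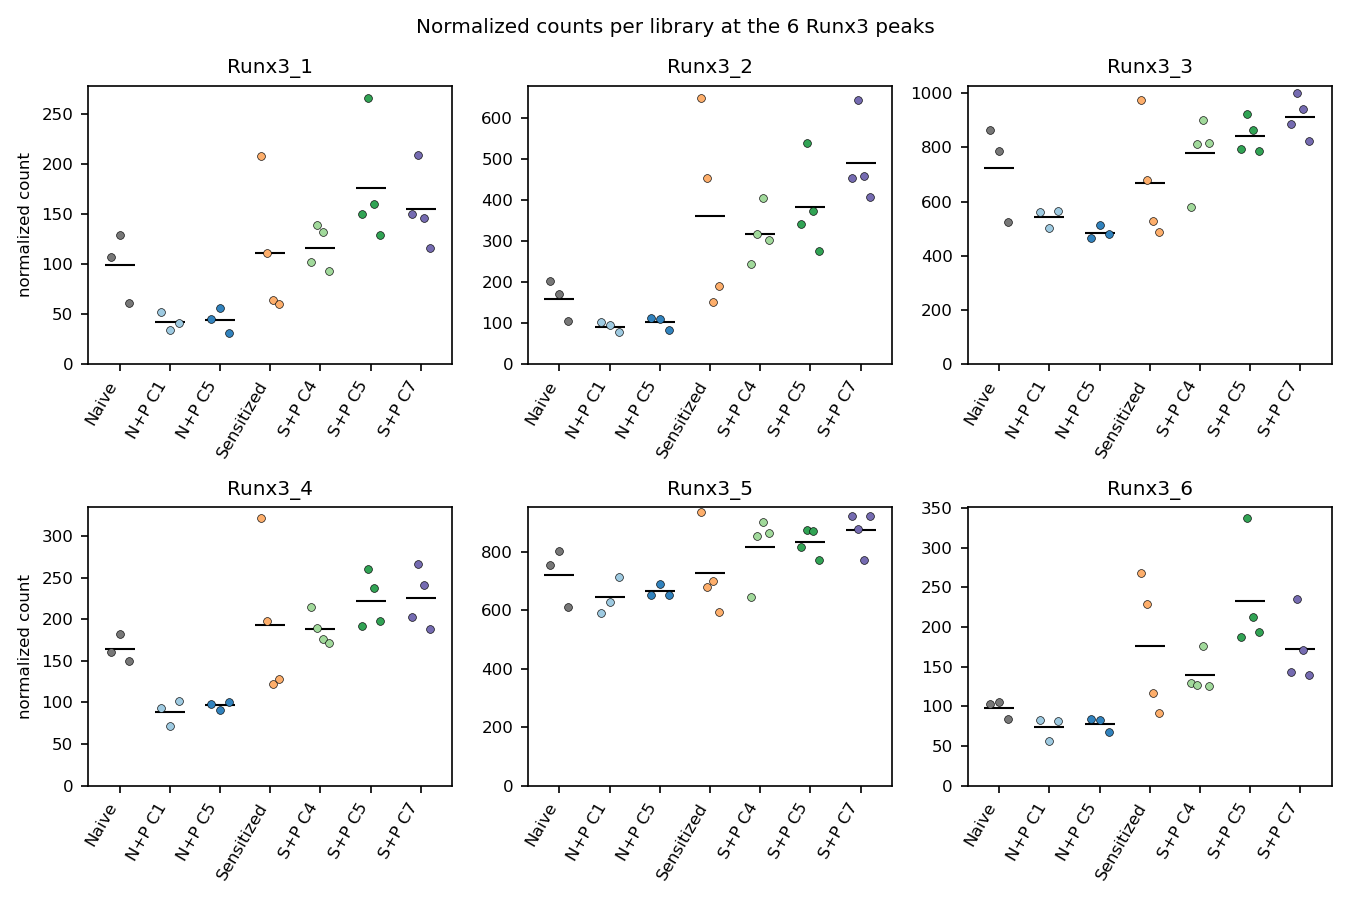
Normalized count (linear vertical axis, from 0) at the 6 Runx3 peaks in each library (points) with the group mean (line), for the 7 groups. At Runx3_1 and Runx3_4 the N+P C1 and N+P C5 points sit below the Naive points without overlap, and at Runx3_1, Runx3_2, Runx3_4 and Runx3_6 Sensitized replicates 1 and 2 stand above replicates 3 and 4.

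Ets1, whose protein falls as naive T cells differentiate, had peaks that moved both ways within one locus. Ets1_4 and Ets1_5 lay in introns 16166 and 25569 bases from the gene start and opened, while Ets1_10, Ets1_12 and Ets1_14, in introns between 86901 and 111507 bases, closed. That start is of an upstream transcript, and the promoter peak Ets1_6, at the canonical start, lay 59769 bases from it. The opening pair therefore lay upstream of Ets1_6 and these closing peaks downstream of it, though not all were called in the same comparison. Ets1_2 and Ets1_22 opened as well in S+P C5 against N+P C5, and Ets1_22 lay downstream of Ets1_6. Ets1_5 (chromosome 9, 32572716 to 32573456) had 62.0, 81.6 and 61.2 in Naive, 64.2, 44.9 and 39.6 in N+P C1, and 75.5, 69.9 and 81.8 in N+P C5. Sensitized libraries held 197, 159, 105 and 116, those of S+P C4 held 85.1, 161, 198 and 164, S+P C5 held 478, 715, 439 and 452, while S+P C7 reached 423, 606, 351 and 304. The PD1+ S+P libraries were all above the rest. Ets1_5 opened by 1.85 ± 0.25 (log2) in S+P C5 against Sensitized (adjusted p 4.478e-11), 1.75 ± 0.26 in S+P C5 against S+P C4 (adjusted p 2.932e-09), 2.78 ± 0.29 in S+P C5 against N+P C5 (adjusted p 7.6e-20) and 1.70 ± 0.40 for the interaction (adjusted p 0.00242, all DESeq2), and each of these was called under all its alternatives.

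Ets1_10 (chromosome 9, 32634103 to 32634734) went the other way. It had 525, 509 and 391 in Naive, 252, 359 and 269 in N+P C1, and 289, 393 and 311 in N+P C5. Sensitized libraries held 175, 167, 284 and 279.9, those of S+P C4 held 276, 279, 149 and 142, S+P C5 held 186, 162, 147 and 171, while S+P C7 reached 97.0, 74.9, 99.4 and 78.8. S+P C7 was lowest without overlap with any other group. The log2 fold change was −1.07 ± 0.24 in Sensitized against Naive (adjusted p 0.0002002), −1.37 ± 0.24 in S+P C7 against Sensitized (adjusted p 1.886e-07) and −0.93 ± 0.24 in S+P C7 against S+P C5 (adjusted p 0.004667, all DESeq2). The last lost its call when replicate 1 of S+P C5 or replicate 2 or 4 of S+P C7 was left out, at −0.87 for the smallest change. Ets1_10 also closed in S+P C5 against N+P C5 (−0.99 ± 0.25), a call lost without N+P C5 replicate 2 (−0.85).

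Ets1_12 had 729.7, 766, 768 and 736 in Sensitized and 398, 398, 396 and 355 in S+P C7, and it closed by −0.96 ± 0.10 (DESeq2 adjusted p 4.539e-20), a call kept under all its alternatives. Of the 8 peaks from Ets1_15 to Ets1_22, which lie between 270401 and 424566 bases from the start with no nearer gene start, only Ets1_22 was called, opening in S+P C5 against N+P C5 (1.07 ± 0.23). Ets1_2, 41637 bases upstream, opened there too (1.17 ± 0.20).

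**Figure D4:**
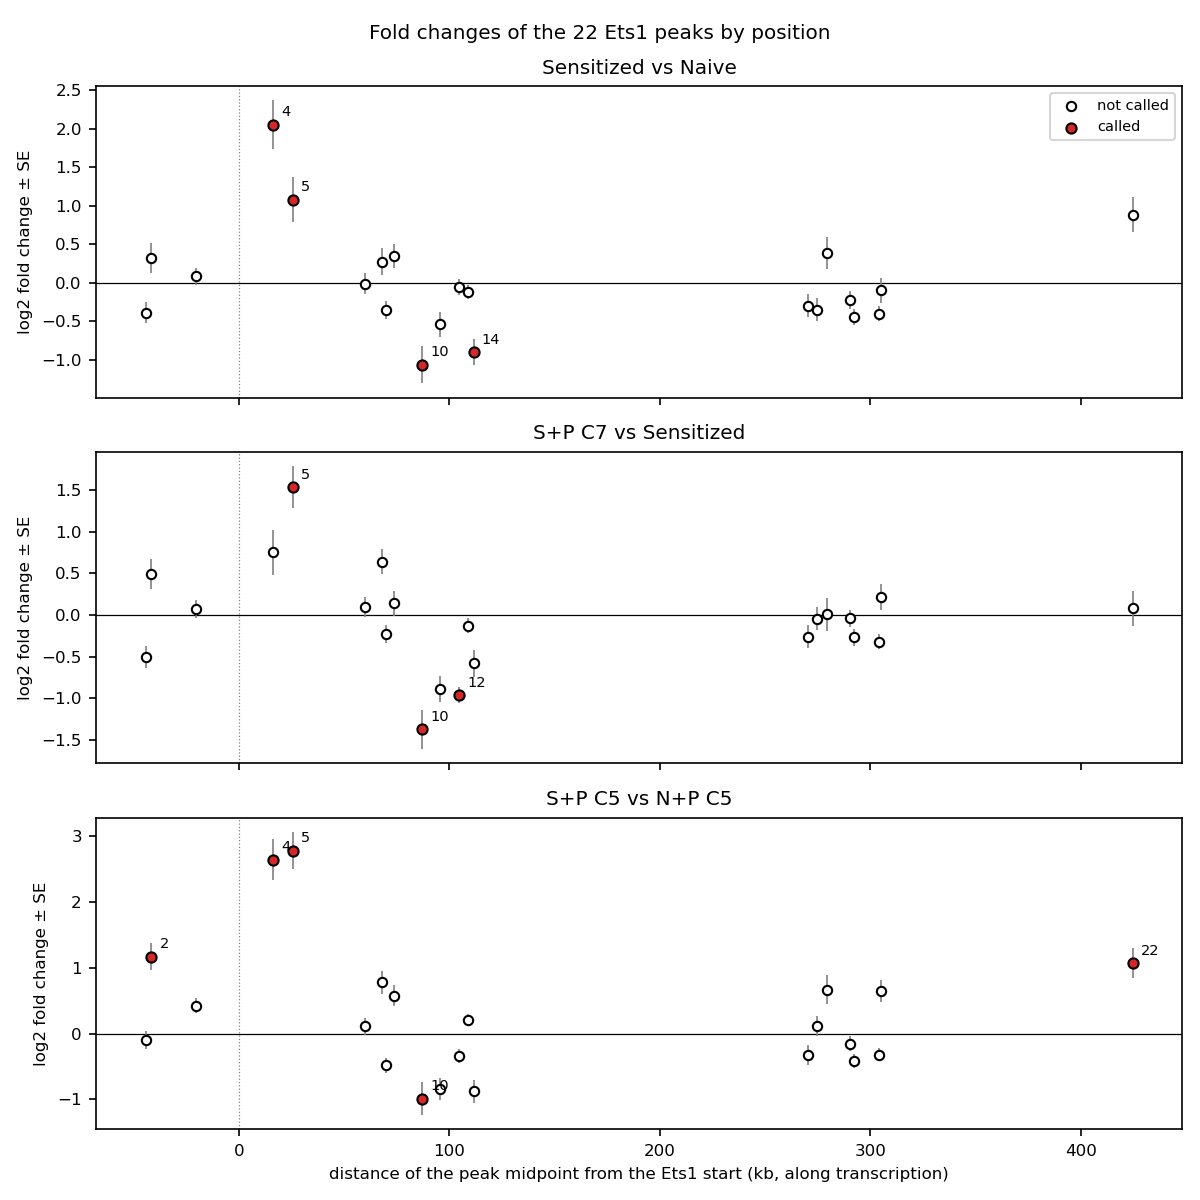
Log2 fold change ± SE (vertical axis) of the 22 Ets1 peaks by distance of the midpoint from the Ets1 start (kb, along transcription), in Sensitized against Naive, S+P C7 against Sensitized and S+P C5 against N+P C5. Red points are called and carry the peak number: in S+P C5 against N+P C5 peaks 2, 4, 5 and 22 lie above 0 and peak 10 below it. The promoter peak Ets1_6 lies 59769 bases along the horizontal axis.

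Fli1 had 2 of its 6 peaks called as closing in S+P C7 against Sensitized, with 3 of the 6 higher and 3 lower. Fli1_5 (chromosome 9, 32406713 to 32407509), in an intron, had 482, 463 and 456 in Naive, 371, 445 and 373 in N+P C1, and 299.8, 471 and 446 in N+P C5. Sensitized libraries held 242, 232, 375 and 383, those of S+P C4 held 303, 315, 194 and 233, S+P C5 held 273, 207, 203 and 240.3, while S+P C7 reached 156, 143, 162 and 147, which was below every other library. The log2 fold change in S+P C7 against Sensitized was −1.02 ± 0.19 (adjusted p 1.72e-06), lost without Sensitized replicate 4 and without replicates 3 and 4 together (−0.64). Fli1_6, a neighbouring intron peak, had 208, 222, 224 and 216 in Sensitized against 138, 111, 77.9 and 102 for S+P C7, and it closed by −1.01 ± 0.20 (adjusted p 6.26e-06, both DESeq2), lost without S+P C7 replicate 3. The other 4 Fli1 peaks had no call, and their highest group means were between 1.08 and 1.43 times their lowest.

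Etv6 had called changes at 3 of its 4 intron peaks, which opened in the graft groups or in S+P C5. Etv6_3 (chromosome 6, 134043321 to 134044882) had 56.5, 39.3 and 53.0 in Naive, 48.7, 52.7 and 35.8 in N+P C1, and 55.3, 109.7 and 66.1 in N+P C5. Sensitized libraries held 606, 541, 165 and 223, those of S+P C4 held 221, 559, 736 and 568, S+P C5 held 673, 1078, 718 and 684, while S+P C7 reached 798, 1067, 946 and 889. Every graft library exceeded every library without a graft. The log2 fold change was 2.95 ± 0.38 in Sensitized against Naive (adjusted p 1.206e-12) and 3.36 ± 0.38 in S+P C5 against N+P C5 (adjusted p 6.309e-17, both DESeq2). The further rise in S+P C5 against Sensitized (1.04 ± 0.34) was lost without Sensitized replicate 3, Sensitized replicate 4 or S+P C5 replicate 2, down to 0.46 without both Sensitized libraries.

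Etv6_4 and Etv6_5 both had their highest mean in S+P C5. Etv6_4 (chromosome 6, 134160666 to 134161355) had 132, 121 and 110.4 in Naive, 105, 94.2 and 111 in N+P C1, and 111, 79.5 and 109 in N+P C5. Sensitized libraries held 60.6, 76.1, 103 and 96.0, those of S+P C4 held 187, 81.8, 58.0 and 61.5, S+P C5 held 286, 415, 273 and 239, while S+P C7 reached 139, 267, 136 and 65.5. S+P C5 was above every other group except for 1 S+P C7 library. It opened in S+P C5 against Sensitized (1.85 ± 0.34, adjusted p 3.537e-06) and in the interaction (2.13 ± 0.53, adjusted p 0.003527), while its opening against N+P C5 (1.60 ± 0.37, adjusted p 0.0001052, all DESeq2) was lost under loess offsets (0.44). Etv6_5 (chromosome 6, 134197156 to 134197911) had 9.64, 37.4 and 30.9 in Naive, 25.4, 28.0 and 43.3 in N+P C1, and 75.5, 42.5 and 46.9 in N+P C5. Sensitized libraries held 189, 234, 55.0 and 91.1, those of S+P C4 held 64.7, 144, 108 and 63.4, S+P C5 held 450.4, 778, 467 and 419, while S+P C7 reached 297, 449, 328 and 156. S+P C5 was above every library of the groups other than S+P C7, which it overlapped. Etv6_5 opened by 2.47 ± 0.42 against S+P C4 in S+P C5 (adjusted p 3.356e-07) and by 3.26 ± 0.45 against N+P C5 (adjusted p 2.212e-11, both DESeq2).

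Ets2 had peaks beyond its 3′ end that differed in pattern. Ets2_5, 96964 bases from the start (chromosome 16, 95599369 to 95600254), had 313, 270.4 and 240.4 in Naive, 186, 227 and 213 in N+P C1, and 208, 229 and 242 in N+P C5. Sensitized libraries held 299, 393, 225 and 249, those of S+P C4 held 208, 319, 344 and 188, S+P C5 held 512, 903, 648 and 467, while S+P C7 reached 608, 809, 547 and 329. All 8 PD1+ S+P libraries stood above the Naive range, as did 1 Sensitized and 2 S+P C4 libraries. It opened in S+P C5 against S+P C4 (1.25 ± 0.25, adjusted p 4.02e-05) and in the interaction (1.39 ± 0.38, adjusted p 0.008381, both DESeq2). Ets2_4, 77581 bases from the start, had 493, 538 and 389 in Naive, 241, 369 and 294 in N+P C1, and 235, 330.3 and 325 in N+P C5. Sensitized libraries held 183, 219.7, 268 and 215, those of S+P C4 held 306, 306, 133 and 141, S+P C5 held 332, 453, 351 and 284, while S+P C7 reached 127, 216, 141 and 79.5. It closed in Sensitized against Naive (−1.09 ± 0.30, adjusted p 0.002706) and in S+P C7 against S+P C5 (−1.35 ± 0.28, adjusted p 0.0002019), which did not overlap, and its interaction was 1.35 ± 0.42 (adjusted p 0.01753, all DESeq2).

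**Figure D5:**
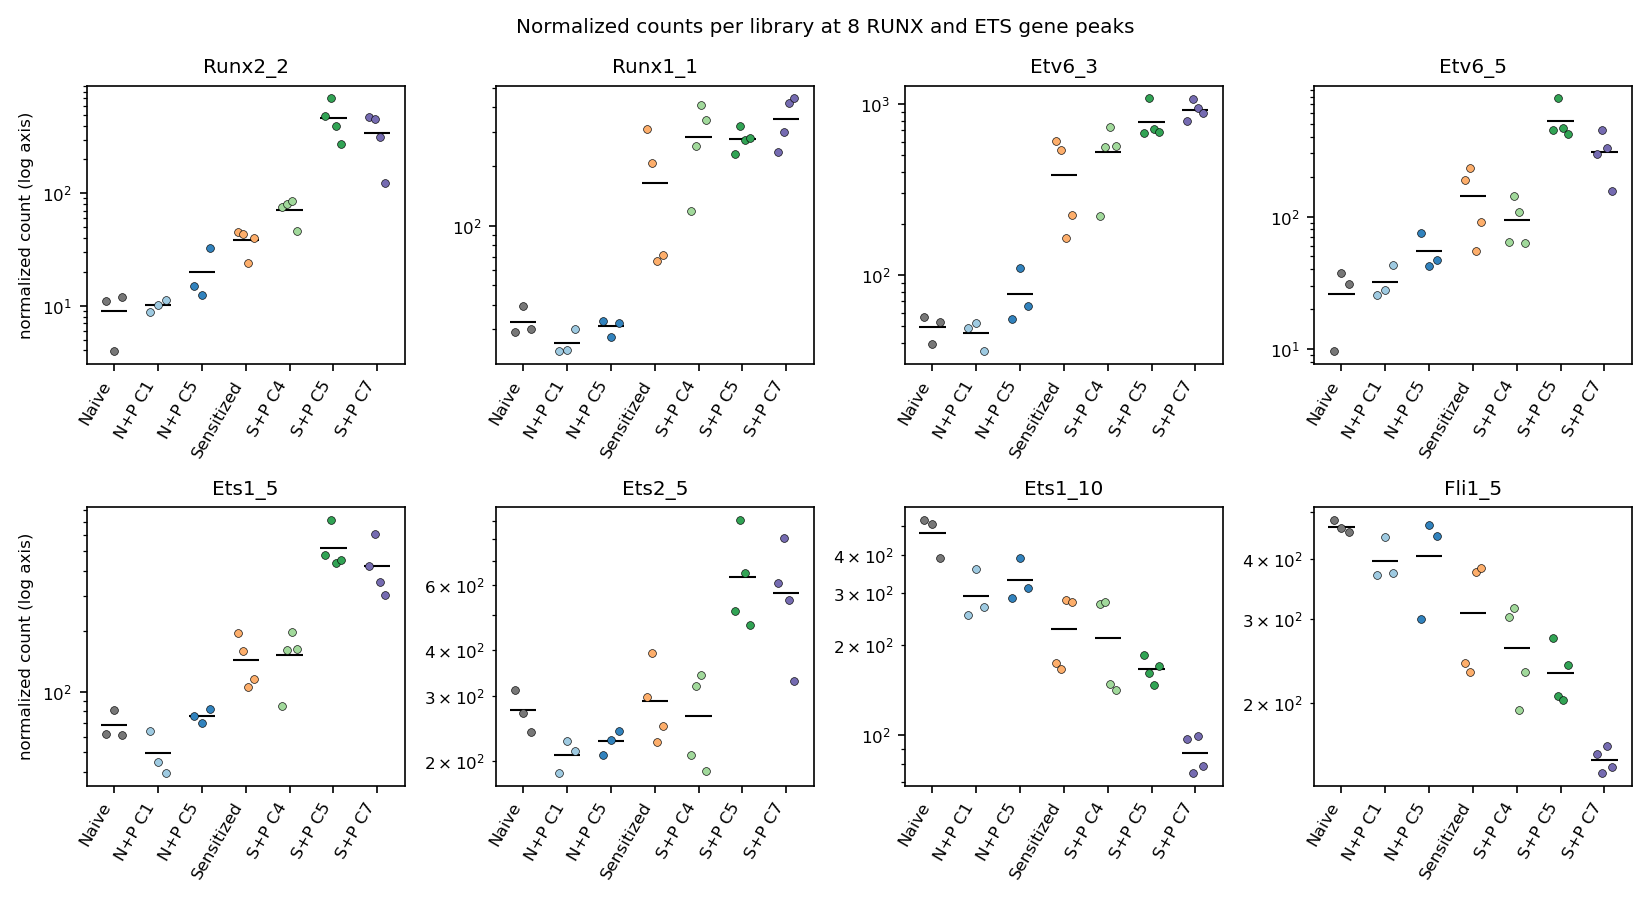
Normalized count (log vertical axis, scaled for each panel) at 8 peaks in each library (points) with the group mean (line), for the 7 groups. Runx2_2, Etv6_5, Ets1_5 and Ets2_5 are highest in S+P C5 and S+P C7, Runx1_1 and Etv6_3 are high in all graft groups, and Ets1_10 and Fli1_5 are lowest in S+P C7.

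Elf1 and the remaining genes moved within narrow ranges. The most changed Elf1 peak, Elf1_4 (the best of 3 intron peaks over 3 comparisons), had 446, 371, 459.8 and 475 in Sensitized and 308, 329, 325 and 325 in S+P C5, without overlap, at a log2 fold change of −0.45 ± 0.12 (DESeq2 adjusted p 0.003814), under the fold threshold.

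The deposited lists of peaks reproducible within a group come from the same reads and were merged to make the counted peaks, so they are not independent of the counts. Of the 66 peaks, 39 overlapped the Naive list by at least 1 base, 30 the N+P C1, 33 the N+P C5, 36 the Sensitized, 10 the S+P C4, 55 the S+P C5 and 40 the S+P C7 list, against 62.65%, 62.87%, 62.19%, 71.09%, 27.03%, 82.89% and 63.96% of all peaks. Outside promoters the shares of the 56 peaks were 53.57%, 37.5%, 42.86%, 48.21%, 12.5%, 80.36% and 53.57%, in the same order. Those of all non-promoter peaks were 49.72%, 49.05%, 48.56%, 60.24%, 13.35%, 71.59% and 48.56%. Of the 66 peaks, 8 (12.12%) were in all 7 lists, against 23.99% of all peaks and 9.68% of non-promoter peaks. A further 19 (28.79%) were in S+P lists alone, against 17.22% of all peaks and 22.59% of non-promoter peaks, among them Runx2_2, Runx1_1, Etv6_3, Etv6_4, Etv6_5, Ets1_4, Ets1_5 and Ets2_5. Ets1_10 was in the Naive and N+P C5 lists alone, Fli1_6 in the Naive list alone, and Fli1_5 in the Naive, N+P C1 and N+P C5 lists alone.

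Peaks elsewhere with a profile close to that of Runx2_2 were sought over all 25 libraries, as Pearson's correlation of log2(normalized count + 1) across 13412 peaks outside these genes and those of the lists below. Among the closest were an intergenic peak near Agfg1 (r = 0.9745) and a peak at Nfil3, which encodes a transcription factor of lymphocytes (r = 0.9722). With a pseudocount of 10 the first of these was replaced by a peak in Ptpn22, nearest to Rsbn1. The Nfil3 peak had a group mean of 37.5 (N+P C5), then 88.6 (Sensitized) and 78.0 in the PD1- S+P cells, and reached 425 when PD1+CD73+ and 259.6 when PD1+CD73-.

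Of 20 other ETS genes, 7 had peaks (18 in all), and Spi1, Spib, Erg and 10 more had none. In S+P C5 against N+P C5, 3 of the 18 opened and 0 closed (16.67%, against 17.2% of all peaks and 35.4% outside promoters), and in Sensitized against Naive 2 opened (11.11%, against 8.62% and 18.4%). A peak upstream of Elk3, an ETS repressor, opened in S+P C5 against Sensitized by 2.71 ± 0.34 (DESeq2 adjusted p 3.8625e-13), and a peak nearest to Etv5 closed in S+P C4 and S+P C7 against Sensitized. Of 21 genes that encode partners of RUNX proteins or are known targets, 17 had 72 peaks, of which 25 opened and 5 closed in S+P C5 against N+P C5 (41.67%, against 17.2% of all peaks and 35.4% outside promoters), and 15 opened and 3 closed in Sensitized against Naive (25%, against 8.62% and 18.4%). Of the 72 peaks 15 were promoter peaks. The list did not exceed both backgrounds in every comparison. For the interaction it had 4.17% called, against 5.97% of all peaks and 11.2% outside promoters. With S+P C4 as the reference for S+P C5 it had 4.17% (5.12% and 11.2%). For S+P C7 against S+P C5 it also had 4.17% (2.38% and 5.14%). Against Sensitized, S+P C7 reached 26.39% (11.9% and 24.6%), S+P C5 12.5% (6.74% and 14.7%) and S+P C4 0% (0.858% and 1.93%).

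Among these targets, peaks nearest to Ifng, Tbx21, Prf1 and Gzmb, genes of cytotoxic effector function, opened in Sensitized against Naive. The Ifng promoter peak opened by 1.65 ± 0.32 in Sensitized against Naive (adjusted p 5.1887e-06) and an intron peak of Tbx21, which encodes T-bet, by 4.00 ± 0.52 (adjusted p 1.2752e-12, both DESeq2). A peak 160585 bases upstream of Eomes, which encodes a T-box factor of memory and exhausted cells, opened in S+P C5 against N+P C5 by 5.37 ± 0.61 and against Sensitized by 3.93 ± 0.49. Tle1, a Groucho corepressor that RUNX proteins bind, closed at its promoter peak in S+P C5 against Sensitized (−0.98 ± 0.23), and Tle4 closed at an upstream peak (−1.10 ± 0.40). Peaks of Il7r, which encodes the receptor of naive and memory cells for IL-7, closed at 3 places in S+P C7 against Sensitized.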

How the data were processed

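ATAC-seq was performed on 25 libraries in 7 groups. Per the study's methods and the labels, the authors trimmed reads with cutadapt 3.4, aligned them to GRCm39 with Bowtie2 2.2.9, removed duplicates with Picard 2.21.8, called peaks with Genrich 0.6.1, kept reproducible peaks per group and merged them with bedtools 2.27.1. The authors then counted reads over the merged peaks with deepTools, and these deposited raw counts per peak were tested here. No column of the table was left out. The deposited peak lists hold a peak score, signal value, p-value and q-value (linear), which were not used: only their positions were, by overlap of 1 base. Deposited starts count from 0 and were raised by 1.

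Members and gene lists were chosen with earlier results of these data known. DESeq2 1.42.0 (Wald test, R 4.3.3) was fitted once to all 25 libraries and all 13527 peaks with the group as the only term, and p-values were adjusted over all peaks by the Benjamini-Hochberg method, with the call thresholds of the study, adjusted p below 0.1 and log2 fold change beyond 0.9 in either direction. Named were, for each gene, the promoter peak with the highest mean and the non-promoter peak with the smallest p over 3 comparisons (the best of several), and for each comparison up to 4 opening and 4 closing peaks by adjusted p. The 26 peaks of that rule are joined by the remaining called peaks, chosen after their values were seen. Alternatives were total counts, loess offsets, edgeR 4.0.16 quasi-likelihood tests, other thresholds, other member rules, filters on low counts, fits to the compared groups alone, leaving out libraries and the replicate number as a block. Same-numbered libraries deviated together (correlation 0.108 to 0.4 for N+P C5 and C1, 0.103 to 0.572 for S+P C5 and C4, 0.522 to 0.771 for S+P C7 and C5), with every pair over 0.1, which was taken as pairing. Differently numbered pairs ran from -0.334 to 0.027, -0.685 to 0.44 and -0.482 to 0.137, so that for S+P C5 and C4 the ranges overlapped. No 2 libraries of a group agreed within sampling noise. The labels name no separate litters or cages, so p-values measure the spread between these samples. Scripts were tested on simulated data. PCR duplicates aside, no molecular identifiers were used, and library depth limits low peaks. Of the peaks close in profile to Runx2_2, 1 is not reported here.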

Additional observations from a re-analysis of the deposited data

Results flagged for a closer look

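Among 104 groups of 4 libraries at the 26 named peaks, 8 held a library far from its 3 companions by Dixon's test, where chance flags about 1 in 20. In S+P C5, replicate 2 stood high at Ets1_5 (715, against 439 to 478), at Etv6_3 (1078, against 673 to 718) and at Etv6_5 (778, against 419 to 467), and replicate 4 stood low at Ets1_14 (217, against 266 to 274). In S+P C7, replicate 4 stood low at Ets1_12 (355, against 396 to 398) and at Ets1_4 (223, against 279 to 290.0). In S+P C4, replicate 1, the library with the lowest total count, stood high at the Ets2 promoter peak Ets2_1 (844, against 636 to 669), and replicate 3 stood low at the Etv6 promoter peak Etv6_1 (1163, against 1330.5 to 1347). All values are normalized counts.

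At 8 peaks the pregnancy effect in PD1+CD73+ cells differed with the graft by a test of the difference itself, on the log2 scale: Runx2_2 (2.46), Etv6_4 (2.13), Runx3_1 (1.82), Ets1_5 (1.70), Ets2_5 (1.39), Ets2_4 (1.35), Runx3_4 (0.97) and Runx3_3 (0.91). Without Sensitized replicates 3 and 4 the count fell to 5, and Runx3_1 (1.29), Runx3_4 (0.52) and Runx3_3 (0.60) were no longer called. N+P C5 and S+P C5 are sorted subsets while Naive and Sensitized are not, and sort and pregnancy cannot be told apart in these values.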

How the results depend on the processing

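Of 204 recomputed counts of called peaks, 182 stayed within 1.5 times the reported count, and of 1043 recomputed fold changes of called peaks 975 kept their call, 68 kept only their direction and 0 reversed. The planned count filter kept all 13527 peaks and changed nothing. A minimum mean of 200 normalized counts, added after seeing the data, kept 57 of the 66 peaks by construction and gave 6 called peaks in Sensitized vs Naive, 3 in S+P C5 vs Sensitized, 6 in S+P C7 vs Sensitized, 10 for S+P C5 against N+P C5, 3 in S+P C5 vs S+P C4 and 4 in the interaction. Members by nearest start alone gave 3 in S+P C5 vs S+P C4. Total counts gave 2 closing peaks in N+P C1 vs Naive, and fits to the compared groups alone gave 2 there and 1 in N+P C5 vs Naive. Leaving out Sensitized replicates 3 and 4 together, also added, gave 18 (13 opening, 5 closing) in Sensitized vs Naive, 3 in S+P C4 vs Sensitized, 6 in S+P C7 vs Sensitized and 5 in the interaction, and the cause was not tested. Leaving out single libraries gave 8 to 15 in Sensitized vs Naive, 0 to 2 in N+P C1 vs Naive and 0 to 1 in N+P C5 vs Naive (the highest without Naive replicate 3), 0 to 2 in S+P C4 vs Sensitized (2 without Sensitized replicate 1, 1 without Sensitized replicate 3 or replicate 1 of S+P C4), from 4 to 9 in S+P C5 vs Sensitized, 8 to 15 in S+P C7 vs Sensitized, 17 to 21 for S+P C5 against N+P C5, 6 to 8 in S+P C5 vs S+P C4, 1 to 3 in S+P C7 vs S+P C5 (1 without S+P C5 replicate 1 or S+P C7 replicate 4) and 6 to 13 in the interaction (13 without Sensitized replicate 1). The replicate number as a block changed no call: 0, 6 and 3 peaks in N+P C5 vs N+P C1, S+P C5 vs S+P C4 and S+P C7 vs S+P C5. Over all 13527 peaks the block gave 0, 734 and 420. Apart from the block and loess offsets, no count over all peaks is given for these alternatives. Whether a moved count was particular to these genes was not tested. Peaks with few raw counts, such as Runx2_2 in Naive, limit the precision of their fold changes.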
